A study of Rattus norvegicus with 12 samples.

Results

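The SLC25 family, the carriers of the inner mitochondrial membrane, was followed in adult rat ventricular myocytes (ARVMs) that overexpressed the nuclear receptor NR4A2. Members were all transcript rows whose gene name begins with Slc25a. This gave 42 of 18752 rows, which carry 40 of 17301 gene names. ARVMs, freshly isolated heart muscle cells of adult male Sprague-Dawley rats, were transduced with Ad-h-NR4A2, an adenovirus carrying the human NR4A2 coding sequence behind the cytomegalovirus promoter, or with Ad-GFP, which encodes green fluorescent protein. Both groups therefore received a virus, at 50 MOI (multiplicity of infection, virus per cell), and both were harvested for RNA sequencing after 48 h. There were 6 samples per group, 12 in all, with the numbers 24 to 29 in both groups. Levels are the FPKM deposited by the authors (the fragments on a transcript, scaled to its length in kilobases and to the mapped fragments of the library), a unit that allows levels of different genes to be compared per length.

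SLC25 carriers are nuclear-encoded proteins that are imported into mitochondria and span the inner membrane. Each exchanges or imports a small set of solutes that cannot cross this membrane by themselves, such as ADP and ATP, phosphate, the intermediates of the citric acid cycle, amino acids, acylcarnitines, cofactors or iron. In the heart, which makes nearly all of its ATP in mitochondria, the ADP/ATP and phosphate carriers serve oxidative phosphorylation and are among the most abundant mitochondrial proteins. NR4A2 (Nurr1) is an orphan nuclear receptor that activates transcription from DNA elements known as NBREs.

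The transduced gene was examined first. Nr4a2 lay between 0.626 and 1.40 FPKM in the Ad-GFP samples (median 0.787) and between 445 and 592 FPKM in the Ad-h-NR4A2 samples (median 533). The groups were far apart, in the direction of their labels (log2 fold change 9.10, SE 0.17, limma adjusted p = 6.59e-13), and fragments of the human sequence and of the rat gene cannot be told apart in this value. The cells carried the marks of cardiomyocytes in both groups. The summed level of 6 cardiomyocyte markers was 28736 to 35704 FPKM in Ad-GFP and 25274 to 30625 FPKM in Ad-h-NR4A2. Of the 6, 4 fell, against 21.7% of all tested genes. With the replicate block described below, 5 fell, against 32.3% of all tested genes. The block added Tnni3 (limma adjusted p = 0.00241). The sum of 5 fibroblast markers was 6.98 to 25.1 and 4.96 to 23.9 FPKM, that of 4 endothelial markers 4.96 to 16.1 and 3.82 to 15.1 FPKM, and that of 3 smooth muscle markers 7.04 to 20.2 and 6.83 to 16.5 FPKM, in the same order of groups. Of these 12 markers of other cells only the smooth muscle gene Myh11 passed the test, and it was lower in Ad-h-NR4A2, while the fibroblast gene Col1a2 was listed at 0 in all samples. With that block, 2 fibroblast markers and 1 endothelial marker were lower as well. The macrophage, fat and erythroid marker sums stayed at or below 0.807 FPKM in every sample. The part of the lower cardiomyocyte markers in the carrier values below was not tested. In bulk RNA, fewer cells of a type and less RNA per cell cannot be told apart. The depth implied by the low values was 18600000 to 27800000 fragments per sample.

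In the Ad-GFP cells, the carriers differed in level by several orders of magnitude. Slc25a4, the ADP/ATP carrier that predominates in heart and skeletal muscle (Ant1), averaged 3273 ± 311 FPKM (SD, n = 6), and Slc25a3, the phosphate carrier, averaged 2088 ± 174 FPKM. These 2 genes made up 78.6% of the summed Slc25a FPKM, with the most abundant transcript of each gene counted. The next were Slc25a11, the oxoglutarate/malate carrier, at 422 ± 31.6, Slc25a5, the second ADP/ATP carrier (Ant2), at 268 ± 24.7, Slc25a39, a glutathione carrier, at 186 ± 35.0, and Slc25a20, the carnitine/acylcarnitine carrier, at 154 ± 11.5 FPKM. Together the 6 held 93.7% of the same sum. Of these 6, the sample ranges of neighbours in the order overlapped only between Slc25a5 and Slc25a39 and between Slc25a39 and Slc25a20. Below them, 13 genes averaged 10 to 100 FPKM, 14 averaged 1 to 10 FPKM and 7 were under 1 FPKM. Over the 33 genes of at least 1 FPKM, the coefficient of variation among the Ad-GFP samples ran from 2.63% for Slc25a32 to 41.3% for Slc25a24, with a median of 9.95%. The sum over all transcript rows of the family was 6846 ± 481 FPKM in Ad-GFP and 6676 ± 393 FPKM in Ad-h-NR4A2, which was 0.949% and 0.913% of all FPKM.

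**Figure D1:**
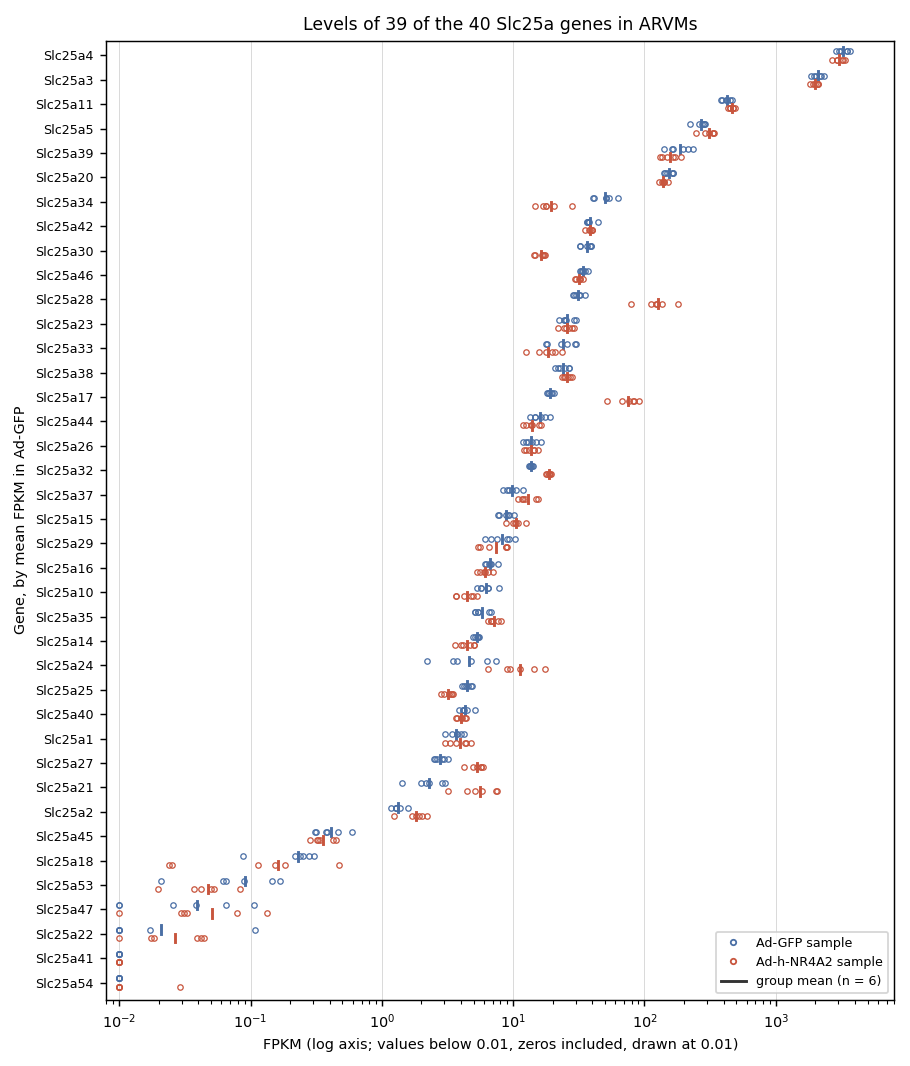
FPKM of 39 of the 40 Slc25a genes (log axis) in each of the 6 Ad-GFP (blue) and 6 Ad-h-NR4A2 (red) samples, with short bars at the group means and genes ordered by their Ad-GFP mean. Slc25a4 and Slc25a3 stand above all others, and the red points of Slc25a28, Slc25a17, Slc25a34 and Slc25a30 lie clear of the blue ones.

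To ask which carriers respond to NR4A2, all genes above 0 in every sample (10950 genes, 36 of the carriers) were tested with limma on log2(FPKM + 0.1). A gene is said to have risen or fallen where the adjusted p was below 0.05, and is called differentially expressed where the ratio of the group means was also at least 1.5 in either direction. By this rule 7 of the 36 carriers were differentially expressed, against 15.2% of all tested genes (1662 of 10950). The iron carrier Slc25a28, the peroxisomal carrier Slc25a17, the calcium-regulated ATP-Mg/phosphate carrier Slc25a24, the oxodicarboxylate carrier Slc25a21 and the uncoupling-protein relative Slc25a27 were higher (5 carriers, against 7.94% of all genes). The orphan carrier Slc25a34 and the uncoupling-protein relative Slc25a30 were lower (2 carriers, against 7.24%). All 7 were also differentially expressed when the sample number entered the fit as a replicate block.

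Without the fold limit, 16 carriers passed the test (44.4%, against 40.9% of all tested genes). Of these, 10 rose (27.8% of carriers, against 19.3% of all genes) and 6 fell (16.7%, against 21.7%). With the replicate block the numbers grew to 26 carriers (72.2%, against 59.4% of all genes). By that fit 14 rose (38.9%, against 27.1%) and 12 fell (33.3%, against 32.3%). The groups did not overlap for 8 of the 36 carriers (22.2%), against 21.5% of all tested genes. In the same-numbered pairs, 12 carriers were higher in Ad-h-NR4A2 in 6 of 6 pairs (33.3%, against 24.1% of all genes) and 12 were lower in 6 of 6 (33.3%, against 29.1%). The median log2 fold change was -0.03 over the 36 carriers and -0.02 over all tested genes, and the median of its absolute value was 0.25 against 0.20. By the rule with the fold limit the share of carriers called, 19.4%, was near the 15.2% of all tested genes. The shares lay further apart for the rises without the fold limit and with the replicate block. These differences in share were not tested.

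**Figure D2:**
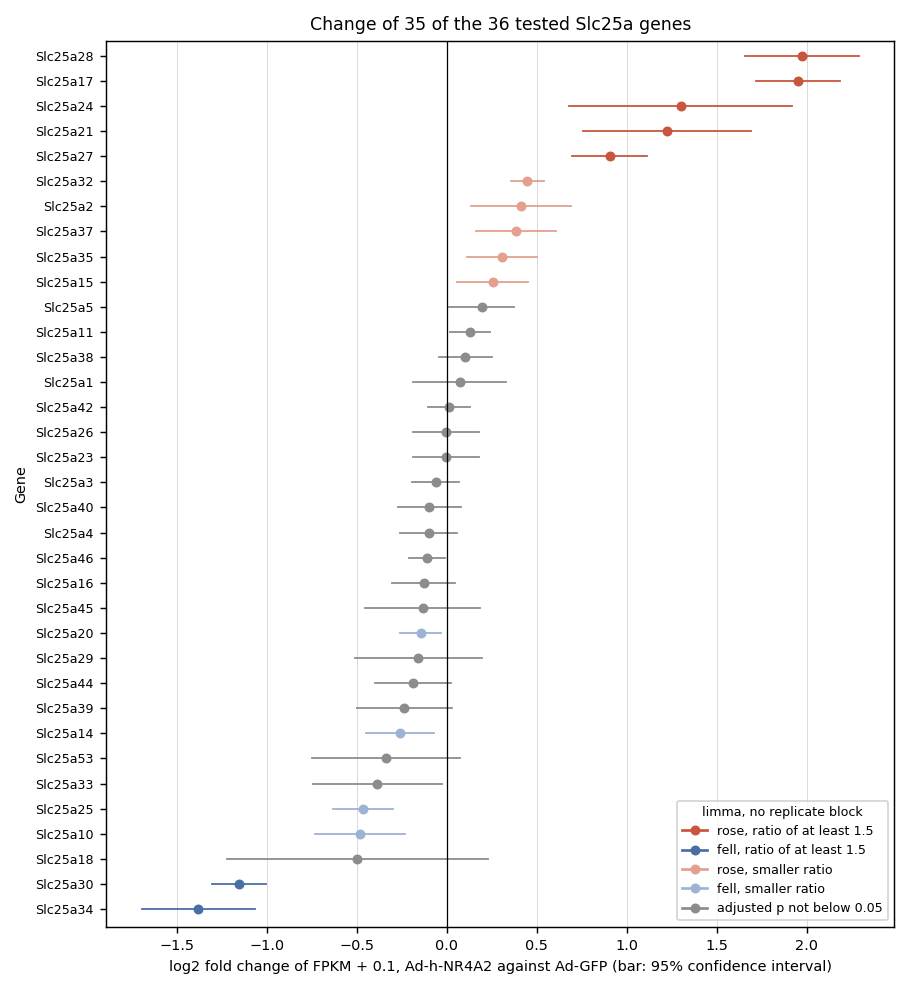
Log2 fold change of FPKM + 0.1 in Ad-h-NR4A2 against Ad-GFP for 35 of the 36 tested Slc25a genes, with 95% confidence intervals (bars) from limma without a replicate block and colors for the call. Slc25a28 and Slc25a17 lie near 2, Slc25a30 and Slc25a34 below -1, and most carriers lie near 0.

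Both iron carriers, or mitoferrins, rose. They bring iron into the matrix for heme and iron-sulfur cluster synthesis. Slc25a28 (mitoferrin 2; transcript on Rn5 chromosome 1, 270865549 to 270876783) is the form of most non-erythroid cells. Its level was 28.6 to 35.1 FPKM in Ad-GFP (median 31.1) and 78.4 to 181 FPKM in Ad-h-NR4A2 (median 123), from 774 to 1317 and from 2322 to 5370 fragments per sample. No Ad-h-NR4A2 sample reached down to the Ad-GFP range. The mean rose 4.04-fold (log2 fold change 1.97, SE 0.15, limma adjusted p = 2.66e-07). Slc25a37 (mitoferrin 1), the form best known from developing red cells, was lower in level, at 8.38 to 12.0 FPKM in Ad-GFP (median 9.53) and 11.0 to 15.5 FPKM in Ad-h-NR4A2 (median 12.1). Its groups overlapped, but it was higher in 6 of 6 pairs, and its mean rose 1.31-fold (log2 fold change 0.39, SE 0.10, adjusted p = 0.00935). The ratio of Slc25a28 to Slc25a37 was 3.20 ± 0.34 in Ad-GFP and 10.1 ± 3.76 in Ad-h-NR4A2 (SD, n = 6). Genes that use mitochondrial iron did not follow in 1 direction. Of the 10 tested, 1 rose and 3 fell, against 19.3% and 21.7% of all tested genes. The rise was that of the glutaredoxin Glrx5 (1.26-fold). The falls were those of the heme synthesis enzymes Alas1 (ratio 0.841) and Fech (0.892) and the iron-sulfur assembly factor Isca1 (0.850). The transporter Abcb10 fell with the block alone (ratio 0.891, adjusted p = 0.0168).

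The second largest rise was that of Slc25a17 (Rn5 chromosome 7, 122515166 to 122557399), a member that sits in the peroxisome membrane, where it carries coenzyme A, FAD and adenine nucleotides. It lay between 18.0 and 20.5 FPKM in Ad-GFP (median 19.1) and between 52.1 and 91.3 FPKM in Ad-h-NR4A2 (median 79.3). The control samples were tightly grouped, and the lowest Ad-h-NR4A2 sample was above all of them. The mean rose 3.94-fold (log2 fold change 1.95, SE 0.11, adjusted p = 1.82e-08), with a 95% confidence interval of 3.29 to 4.55 for the fold change from limma. In order of level among the 40 carriers, Slc25a17 moved from place 16 to 8, and Slc25a28 from place 11 to 7. Slc25a42, the mitochondrial coenzyme A carrier, was 38.3 ± 3.04 FPKM in Ad-GFP and 38.5 ± 1.72 FPKM in Ad-h-NR4A2 (adjusted p = 0.884, 95% confidence interval of the fold change 0.931 to 1.09). Slc25a16, also linked to coenzyme A, was 6.66 ± 0.549 and 6.09 ± 0.619 FPKM (adjusted p = 0.222).

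The ATP-Mg/phosphate carriers, which adjust the adenine nucleotide pool of the matrix, went in different directions. Slc25a24 (Rn5 chromosome 2, 231401404 to 231438472) varied more among the control samples than any other carrier of at least 1 FPKM, from 2.19 to 7.36 FPKM (median 4.27), and reached 6.45 to 17.5 FPKM in Ad-h-NR4A2 (median 10.4). The groups overlapped, yet within the same-numbered pairs the level was 1.94 to 3.27 times as high with Ad-h-NR4A2 in 6 of 6. The mean rose 2.44-fold (log2 fold change 1.30, SE 0.29, adjusted p = 0.00266; SE 0.10 with the replicate block). Slc25a25 fell from 4.47 ± 0.309 to 3.21 ± 0.263 FPKM, without overlap (log2 fold change -0.47, SE 0.08, adjusted p = 0.000338). Slc25a23 was by far the most abundant of these genes, and its means were close to each other, at 25.9 ± 3.04 and 25.8 ± 2.61 FPKM (adjusted p = 0.967, 95% confidence interval of the fold change 0.878 to 1.13). Slc25a41 was listed at 0 in all 12 samples. Its locus follows that of Slc25a23 on chromosome 9 after 2881 bases.

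The group of di- and tricarboxylate carriers was taken here to include Slc25a34, whose substrate is not known, and its relative Slc25a35. In this group 2 of 6 rose and 2 fell, against 19.3% and 21.7% of all tested genes. The other 2 were not called by the main test (Slc25a11, described below, rose with the block). Slc25a21, which carries oxoadipate and oxoglutarate (Rn5 chromosome 6, 87133943 to 87636590), was low, at 1.43 to 3.01 FPKM in Ad-GFP (median 2.24) and 3.19 to 7.48 FPKM in Ad-h-NR4A2 (median 5.44), from 71 to 175 and 157 to 457 fragments. The groups did not overlap, and the mean rose 2.43-fold (log2 fold change 1.22, SE 0.22, adjusted p = 0.000513). Slc25a34 (Rn5 chromosome 5, 163889647 to 163894419) has no settled substrate. In the control cells it was the most abundant carrier after the leading 6, at 40.3 to 63.1 FPKM (median 50.7), and in Ad-h-NR4A2 it was 14.7 to 28.2 FPKM (median 17.9). It showed the largest fall of the family, to a ratio of 0.387 of the means (log2 fold change -1.38, SE 0.14, adjusted p = 5.95e-06), and went from place 7 to 14. Its closest relative Slc25a35 rose, from 5.74 ± 0.721 to 7.11 ± 0.669 FPKM (adjusted p = 0.0151, log2 fold change 0.31, SE 0.09). The ratio of Slc25a34 to Slc25a35 was 8.70 ± 0.915 in Ad-GFP and 2.77 ± 0.864 in Ad-h-NR4A2. Slc25a10, the dicarboxylate carrier that exchanges malate or succinate for phosphate, fell from 6.22 ± 0.892 to 4.43 ± 0.687 FPKM (log2 fold change -0.48, SE 0.12, adjusted p = 0.00464) and was lower in 6 of 6 pairs. Slc25a1, the citrate carrier, was 3.68 ± 0.412 and 3.91 ± 0.690 FPKM (adjusted p = 0.667).

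Slc25a11 exports oxoglutarate in exchange for malate in the malate-aspartate shuttle, which moves cytosolic reducing equivalents into mitochondria. It was 385 to 464 FPKM in Ad-GFP (median 423) and 433 to 490 FPKM in Ad-h-NR4A2 (median 462). The difference was small and not past the limit without the block (ratio 1.09, adjusted p = 0.0609), but Slc25a11 was higher in 6 of 6 pairs, and with the replicate block it rose (adjusted p = 0.00262). Of the 4 enzymes of the shuttle, 1 rose, against 19.3% of all tested genes. Got1, the cytosolic aspartate aminotransferase, went from 272 ± 35.8 to 554 ± 75.3 FPKM (ratio 2.03, adjusted p = 2.66e-06), whereas the ratios of Got2, Mdh1 and Mdh2 were 1.02, 1.02 and 1.01. The aspartate/glutamate carriers of the shuttle were not analysed here.

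To show the DNA in front of the differentially expressed carriers, the 250 bases before the annotated start were read from the RefSeq promoter table of the rat build GRCr8, whose coordinates differ from the Rn5 ones given above. An entry was found for 34 of the 40 carriers, Slc25a30 not among them. They were searched on both strands for the NBRE, AAAGGTCA or TGACCTTT on the other strand, and for the core AGGTCA that it contains (TGACCT on the other strand). The NBRE occurred in 1.24% of 33469 promoter windows and in 1 carrier, Slc25a34, the gene that fell most. The core occurred in 14.1% of windows and in 6 carriers, of which Slc25a34 and Slc25a27 were differentially expressed and Slc25a16, Slc25a39, Slc25a41 and Slc25a47 were either not tested or not called by the main test (Slc25a39 fell with the block). The windows of Slc25a28, Slc25a17, Slc25a24 and Slc25a21 held neither motif. These matches describe letters and not binding. The windows of Slc25a34 (chr5:159219893-159220142, minus strand), Slc25a27 (chr9:24804058-24804307, plus strand), Slc25a28 (chr1:252491343-252491592, minus strand) Slc25a17 (chr7:114767164-114767413, minus strand), Slc25a24 (chr2:199449175-199449424, plus strand) and Slc25a21 (chr6:80437721-80437970, minus strand) are shown 5′ to 3′, with motif matches in capitals. In Slc25a34 the match begins 152 bases before the start and in Slc25a27 it begins 48 bases before it.
Slc25a34: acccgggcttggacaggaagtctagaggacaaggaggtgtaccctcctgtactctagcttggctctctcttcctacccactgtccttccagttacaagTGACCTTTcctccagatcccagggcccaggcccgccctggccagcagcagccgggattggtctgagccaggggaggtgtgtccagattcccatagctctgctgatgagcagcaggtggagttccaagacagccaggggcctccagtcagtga
Slc25a27: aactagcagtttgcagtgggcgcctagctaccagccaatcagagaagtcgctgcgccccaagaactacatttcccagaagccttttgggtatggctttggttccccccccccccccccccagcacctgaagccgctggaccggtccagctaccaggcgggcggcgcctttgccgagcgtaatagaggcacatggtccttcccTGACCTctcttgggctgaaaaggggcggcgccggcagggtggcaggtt
Slc25a28: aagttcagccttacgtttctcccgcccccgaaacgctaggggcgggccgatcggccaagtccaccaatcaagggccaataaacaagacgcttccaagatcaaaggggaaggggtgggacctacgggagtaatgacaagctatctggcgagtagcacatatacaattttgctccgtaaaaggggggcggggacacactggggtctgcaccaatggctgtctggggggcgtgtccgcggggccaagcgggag
Slc25a17: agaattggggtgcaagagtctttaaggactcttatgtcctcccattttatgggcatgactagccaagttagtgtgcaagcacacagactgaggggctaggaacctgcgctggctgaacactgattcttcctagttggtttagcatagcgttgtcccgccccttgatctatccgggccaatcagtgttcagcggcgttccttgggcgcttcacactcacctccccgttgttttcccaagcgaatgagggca
Slc25a24: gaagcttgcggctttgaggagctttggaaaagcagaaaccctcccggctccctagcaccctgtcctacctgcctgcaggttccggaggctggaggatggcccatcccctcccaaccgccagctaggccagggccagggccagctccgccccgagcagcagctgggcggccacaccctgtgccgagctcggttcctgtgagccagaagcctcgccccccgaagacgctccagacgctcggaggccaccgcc
Slc25a21: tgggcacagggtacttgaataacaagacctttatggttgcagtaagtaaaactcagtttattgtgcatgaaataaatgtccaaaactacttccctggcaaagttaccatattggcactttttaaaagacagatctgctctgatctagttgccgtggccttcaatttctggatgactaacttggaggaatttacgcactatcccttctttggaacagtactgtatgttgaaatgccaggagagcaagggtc

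The 3 carriers named for their likeness to uncoupling proteins, which can let protons back into the matrix, all passed the test, with 1 rise and 2 falls. Of all tested genes, 19.3% rose and 21.7% fell. Slc25a27 (UCP4; Rn5 chromosome 9, 18758260 to 18783968) was 2.51 to 3.18 FPKM in Ad-GFP (median 2.74) and 4.21 to 5.94 FPKM in Ad-h-NR4A2 (median 5.50), from 133 to 217 and 227 to 380 fragments. The groups did not overlap, and the mean rose 1.91-fold (log2 fold change 0.91, SE 0.10, adjusted p = 6.86e-06). Slc25a30 (KMCP1; Rn5 chromosome 15, 61520776 to 61541280) went the other way. It was 32.4 to 39.1 FPKM in Ad-GFP (median 37.2) and 14.3 to 17.6 FPKM in Ad-h-NR4A2 (median 16.8), so that the groups were widely separated. Its fall, to a ratio of 0.448, had the smallest standard error of the 7 differentially expressed carriers (log2 fold change -1.15, SE 0.07, adjusted p = 4.56e-08). Slc25a14 (UCP5) fell less, from 5.30 ± 0.211 to 4.43 ± 0.595 FPKM (log2 fold change -0.26, SE 0.09, adjusted p = 0.0300). That call was lost when any of 7 samples was left out, with adjusted p up to 0.0678.

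The uncoupling proteins proper belong to the same family but carry other symbols. Ucp2 rose from 87.7 ± 16.8 to 207 ± 56.2 FPKM (ratio 2.35, adjusted p = 9.77e-05), and Ucp3, at a much lower level, rose from 1.44 ± 0.477 to 5.16 ± 1.90 FPKM (ratio 3.58, adjusted p = 0.000329). Neither gene's groups overlapped. Ucp1, the form of brown fat, was not tested. It was listed at 0 in 5 of 6 Ad-GFP samples and at 0.035 to 0.133 FPKM in Ad-h-NR4A2, from 1 to 3 fragments. Of the other family members under such symbols, Mtch1 fell slightly (ratio 0.908), and Mtch2 and Mcart1 had ratios of 0.955 and 1.15 and did not pass (Mtch2 fell with the block, adjusted p = 0.0289).

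**Figure D3:**
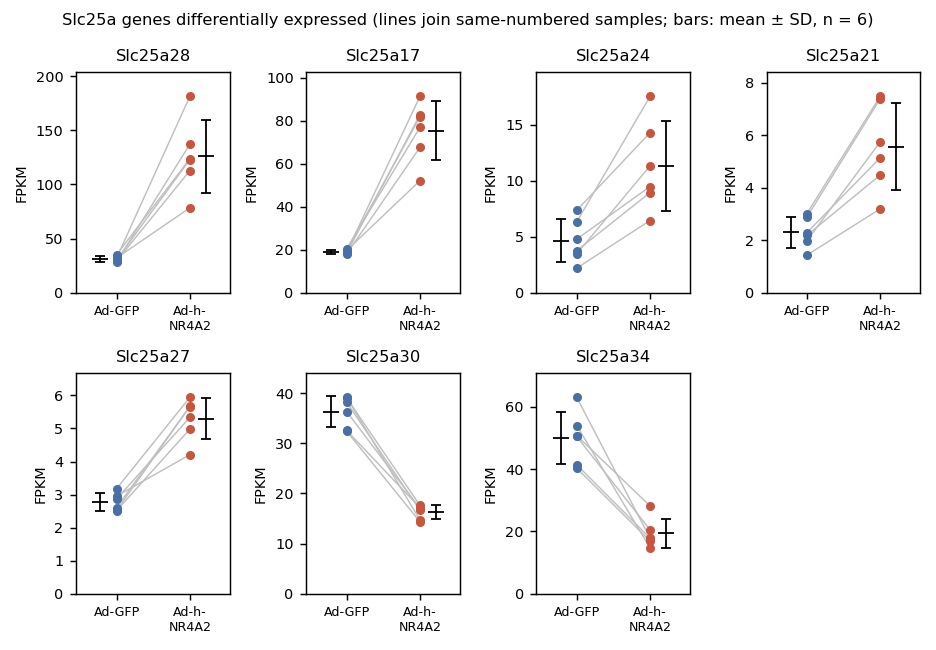
FPKM of the 7 differentially expressed Slc25a genes in each sample, with lines joining the samples of the same number and bars at the mean ± SD (n = 6 per group). Every line runs upward for Slc25a28, Slc25a17, Slc25a24, Slc25a21 and Slc25a27 and downward for Slc25a30 and Slc25a34.

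Among the Ad-h-NR4A2 samples, number 24 had the lowest level of its group for all 5 carriers differentially expressed upward and the highest for both downward. Among the called carriers with smaller changes this was mixed. Sample 24 also had the lowest Slc25a35 of its group (6.39 FPKM), a carrier that rose. It had the highest Slc25a10 (5.31 FPKM) and Slc25a20 (152 FPKM), carriers that fell. The other way, it had the highest Slc25a15 (12.5 FPKM), which rose, and the lowest Slc25a25 (2.81 FPKM), which fell. For the remaining called carriers it was at neither extreme. Ad-GFP sample 24 was the lowest of its own group for Slc25a24 (2.19 FPKM) and Slc25a21 (1.43 FPKM). For the other differentially expressed carriers it was at neither extreme of that group. Whether sample 24 stood apart over all genes was not tested. Ad-h-NR4A2 sample 27 had the highest level of its group for 4 of the 5 carriers differentially expressed upward and the lowest for Slc25a34. Within pairs, the Slc25a28 ratio was 2.45 in pair 24 and 5.69 in pair 27, the Slc25a17 ratio was 2.65 and 4.85, the Slc25a27 ratio was 1.42 and 2.25, and the Slc25a34 ratio was 0.555 and 0.273, and these were the smallest and largest changes of each gene. For the other 3, at least 1 extreme lay in another pair. The Slc25a24 ratio was smallest in pair 29 (1.94) and largest in pair 25 (3.27), the Slc25a21 ratio was smallest in pair 26 (2.05) and largest in pair 28 (2.91), and the fall of Slc25a30 was smallest in pair 29 (ratio 0.527) and largest in pair 27 (0.376). Nr4a2 itself was 455 FPKM in Ad-h-NR4A2 sample 24 and 592 FPKM in sample 27, the second lowest and the highest of the group. The lowest, 445 FPKM, was in sample 25, with a Slc25a28 ratio of 4.06. The cardiomyocyte marker sum was 25274 FPKM in sample 24 and 25921 FPKM in sample 27. The part of these levels in the differences between pairs was not tested.

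Slc25a20 brings acylcarnitines to the matrix for fatty acid oxidation. It was 141 to 166 FPKM in Ad-GFP (median 156) and 129 to 152 FPKM in Ad-h-NR4A2 (median 139). The groups overlapped, but the level was lower in 6 of 6 pairs, and it fell by a small step (ratio 0.903, log2 fold change -0.15, SE 0.05, adjusted p = 0.0445). The call was lost when any of 9 samples was left out, with adjusted p up to 0.0991, whereas with the replicate block adjusted p was 0.00230. Of the 6 enzymes and transporters that serve the same shuttle, Cpt1a, the liver-type form of the rate-limiting carnitine palmitoyltransferase, rose from 17.5 ± 2.30 to 56.0 ± 2.51 FPKM (ratio 3.20, adjusted p = 2.87e-09). Cpt1b, the muscle form, fell from 236 ± 10.6 to 181 ± 18.9 FPKM (ratio 0.767, adjusted p = 0.000260). The carnitine transporter Slc22a5 fell as well (ratio 0.824), and Cpt2, Cpt1c and Crat were not called by the main test. With the block, these 3 passed, Cpt2 and Cpt1c as rises (adjusted p = 0.00507 and 0.0106) and Crat as a fall (adjusted p = 0.0208).

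For the carriers of oxidative phosphorylation, no ratio of the means reached 1.5 in either direction, and none passed the main test. Slc25a4 (Rn5 chromosome 16, 48981600 to 48985395) was 2893 to 3689 FPKM in Ad-GFP (median 3291) and 2666 to 3367 FPKM in Ad-h-NR4A2 (median 3060.2). The ratio of the means was 0.932 (95% confidence interval of the fold change 0.835 to 1.04, adjusted p = 0.300). It was lower in 6 of 6 pairs, and with the replicate block it fell (adjusted p = 0.0192). After quantile normalization it also passed, with a larger step (log2 fold change -0.21, adjusted p = 0.00307, beside -0.10 as deposited). Slc25a5 (Rn5 chromosome X, 123549736 to 123552803), the form of most dividing tissues, was 222 to 287 FPKM in Ad-GFP (median 278) and 247 to 339 FPKM in Ad-h-NR4A2 (median 320). It had a ratio of 1.15 (adjusted p = 0.0786), was higher in 6 of 6 pairs, and rose with the block (adjusted p = 0.00339). The ratio of Slc25a4 to Slc25a5 was 12.3 ± 1.46 in Ad-GFP and 9.97 ± 0.934 in Ad-h-NR4A2 (SD, n = 6). Slc25a3 (Rn5 chromosome 7, 31904033 to 31911496) is listed with 2 transcripts. The main one was 1858 to 2320.0 FPKM in Ad-GFP (median 2099) and 1830.3 to 2097 FPKM in Ad-h-NR4A2 (median 2019), a ratio of 0.956 (adjusted p = 0.439, and 0.0852 with the block). The other transcript was 23.5 ± 4.39 and 22.2 ± 3.49 FPKM. In the GRCr8 gene table, 9 pseudogenes carry names derived from Slc25a5, 2 from Slc25a3 and 1 from Slc25a4, and whether fragments were shared with such copies was not tested.

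**Figure D4:**
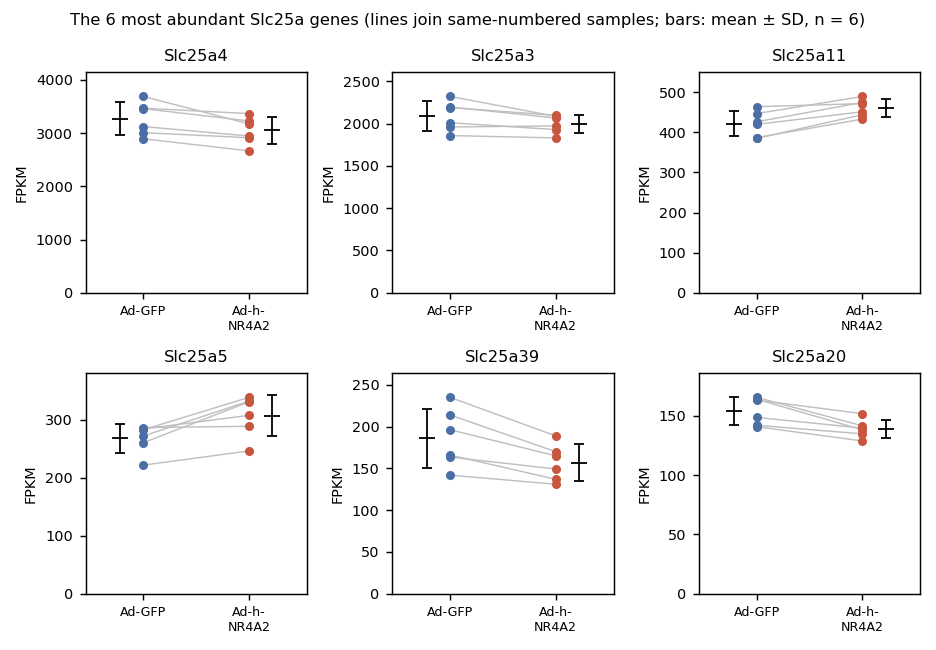
FPKM of the 6 most abundant Slc25a genes in each sample, with lines joining the samples of the same number and bars at the mean ± SD (n = 6 per group). The groups overlap for all 6 genes, while the lines of Slc25a4, Slc25a39 and Slc25a20 run downward and those of Slc25a11 and Slc25a5 upward in 6 of 6 pairs.

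Among the amino acid carriers, 2 of 6 rose and none fell without the block, against 19.3% and 21.7% of all tested genes. With the block, 3 rose and 2 fell, against 27.1% and 32.3%. Slc25a15, an ornithine carrier of the urea cycle, rose from 8.79 ± 0.971 to 10.5 ± 1.25 FPKM (adjusted p = 0.0408, log2 fold change 0.25, SE 0.09), a call that was lost when any of 8 samples was left out (adjusted p up to 0.0903). Slc25a2, the second ornithine carrier, rose from 1.33 ± 0.144 to 1.82 ± 0.337 FPKM (adjusted p = 0.0207, log2 fold change 0.41, SE 0.13), from 25 to 36 and 28 to 54 fragments. Slc25a44, which imports branched-chain amino acids, was 16.0 ± 2.09 and 14.0 ± 1.75 FPKM (adjusted p = 0.145), and Slc25a29, a carrier of basic amino acids, was 8.17 ± 1.59 and 7.36 ± 1.71 FPKM (adjusted p = 0.475). Both were lower in 6 of 6 pairs and fell with the block (adjusted p = 0.00247 and 0.0301). Slc25a38, a glycine carrier needed for heme synthesis, was 23.9 ± 2.39 and 25.6 ± 1.62 FPKM (adjusted p = 0.250) and rose with the block (adjusted p = 0.0390). The glutamate carriers were listed at low values. Slc25a18 was 0.088 to 0.305 FPKM in Ad-GFP (4 to 15 fragments) and 0.024 to 0.473 FPKM in Ad-h-NR4A2 (1 to 22 fragments; adjusted p = 0.262). Slc25a22 is listed at 2 loci of chromosome 1 under the same accession, was listed at 0 at both loci in 4 of 6 Ad-GFP samples, and was not tested. Whether fragments shared by the 2 loci bear on these low values was not tested either.

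Of the 4 cofactor and nucleotide carriers, 1 rose by the main test, against 19.3% of all tested genes. Slc25a32, which carries folate or FAD, was 13.3 to 14.2 FPKM in Ad-GFP (median 13.6) and 17.9 to 19.4 FPKM in Ad-h-NR4A2 (median 18.8). The groups did not overlap, and the rise was modest but precise (ratio 1.37, log2 fold change 0.45, SE 0.04, adjusted p = 1.96e-06). Slc25a33, a carrier of pyrimidine nucleotides, was 24.1 ± 5.45 and 18.4 ± 3.85 FPKM (adjusted p = 0.0814). It was lower in 6 of 6 pairs and fell with the block (adjusted p = 6.11e-05). Slc25a26, the S-adenosylmethionine carrier, was 13.8 ± 1.64 and 13.7 ± 1.25 FPKM (adjusted p = 0.972, 95% confidence interval of the fold change 0.879 to 1.13).

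The glutathione carriers did not pass the main test. Slc25a39 was 142 to 235 FPKM in Ad-GFP (median 181) and 131 to 189 FPKM in Ad-h-NR4A2 (median 157; adjusted p = 0.141). It was lower in 6 of 6 pairs and fell with the block (adjusted p = 0.000288). In the GRCr8 table, 8 pseudogenes are named after it. Slc25a40, its relative, was 4.33 ± 0.431 and 4.03 ± 0.291 FPKM (adjusted p = 0.370). Slc25a46, a member of the outer membrane that bears on mitochondrial shape, was 34.1 ± 1.79 and 31.6 ± 1.57 FPKM (adjusted p = 0.0785) and fell with the block (adjusted p = 0.00824) or after quantile normalization (adjusted p = 0.0113). Slc25a45 was 0.407 ± 0.105 and 0.358 ± 0.065 FPKM and Slc25a53 was 0.091 ± 0.055 and 0.048 ± 0.021 FPKM, and neither passed with or without the block. Slc25a47 reached at most 4 fragments in a sample, and Slc25a54, which lies 4752 bases from Slc25a24 on chromosome 2, was above 0 in 1 sample. Both were left untested, as were Slc25a22 and Slc25a41.

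Among the genes around the carriers, most of those of import did not pass the test. Carrier proteins are inserted by the TIM22 translocase after passage through the outer membrane, and of 13 tested genes of this route 3 rose and 1 fell, none by 1.5-fold, against 19.3% and 21.7% of all tested genes. Timm10b, a small chaperone of the intermembrane space, rose from 27.1 ± 2.22 to 38.6 ± 2.89 FPKM (ratio 1.42, adjusted p = 3.44e-05), and the outer membrane receptors Tomm20 and Tomm70a rose by ratios of 1.16 and 1.12. Agk, a lipid kinase that is also a TIM22 subunit, fell (ratio 0.822, adjusted p = 0.00256). With the block, Timm22 and Timm9 also rose and Timm8a2, at 0.404 ± 0.231 FPKM in Ad-GFP, also fell (adjusted p = 0.0431, 0.0359 and 0.00206). The median log2 fold change of the list was 0.05, beside -0.02 over all tested genes. Of the 3 outer membrane channels, Vdac2 and Vdac3 rose (ratios 1.19 and 1.10) and Vdac1 had a ratio of 0.949. Of the 2 subunits of the pyruvate carrier, Mpc1 fell from 520 ± 20.5 to 431 ± 24.1 FPKM (adjusted p = 0.000244) and Mpc2 had a ratio of 1.05 (adjusted p = 0.375; with the block it rose, adjusted p = 0.0247). Of the genes of mitochondrial calcium uptake described here, the pore subunit Mcu fell (ratio 0.868), and Micu2, Micu3 and Letm1 did not pass (Letm1 fell with the block, adjusted p = 0.0161).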

How the data were processed

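RNA was measured in 12 ARVM samples. As the paper states, the authors aligned stranded paired-end reads, from libraries sequenced in a single run, to Rn5 with STAR and computed FPKM of RefSeq transcripts with Cufflinks; the deposited FPKM cover 18752 transcripts, and 8 values, none of them of a carrier, carry a failed status. Groups and sample numbers come from the titles. A gene name with several transcripts is represented by the one with the highest mean FPKM. Log2(FPKM + 0.1) of the 10950 genes above 0 in all samples was fitted with limma 3.58.1 (eBayes with trend, two-sided, Benjamini-Hochberg adjustment over all tested genes) in R 4.3.3, without a block, since the study's tests were unpaired. Fold changes on this scale understate changes of low genes. Same-numbered samples deviated together from their group means (correlation 0.347 to 0.623 in the 6 pairs, over 10950 genes), and the paper describes independent experiments with different rats, so the replicate block was fitted as an alternative and is given where it changed a call. The p-values measure the spread between these samples.

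Fragment numbers and depth were recovered from low FPKM values, of which 99.2% to 99.9% per sample were whole multiples of 1 fragment within 0.05; they cover counting error only. Every carrier is named except 1, which like 1 gene of the related lists is counted but not reported here by itself, with lowest, median and highest values for the differentially expressed, the 6 most abundant and those of roles that differ in direction. The fit without a block was tested on simulated data with independent noise per sample, so without the correlation of same-numbered samples. Of 200 genes changed by a log2 of 1.5, 194 were recovered in the right direction, with 17 others called. Of 200 changed by 0.585, 141 were recovered, with 13 others called. Without any change 0 genes were called. The changed genes were 200 of 10950, whereas 4484 genes passed the adjusted p limit in the data. The numbers recovered therefore do not carry over to the real fit. Python 3.11.15 with SciPy 1.17.1, NumPy 2.4.6, Matplotlib 3.10.9 and pandas 2.3.3 served for tables and plots. The carriers, roles, related lists and markers were chosen with earlier results of these data known. The alternatives tried were other pseudocounts (0.01 and 1), every gene above 0 in any sample, only genes averaging 1 FPKM or more, the TPM scale, quantile and median-ratio scaling, limma without trend, transcripts summed or tested singly, the fold limit from the limma coefficient, and each sample left out in turn. Promoter sequences are from RefSeq (GRCr8), 33 carriers matched by accession and 1 by symbol; no entry was found for the others, Slc25a30 and Slc25a37 among them.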

Additional observations from a re-analysis of the deposited data

Results flagged for a closer look

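In 79 groups of 6 samples (the 40 carriers and Nr4a2 by group, leaving out groups at 0 throughout), 5 had a sample far from the others, where chance gives about 1 in 20 groups. Slc25a42, the coenzyme A carrier, was 44.4 FPKM in Ad-GFP sample 27 and 36.3 to 37.9 FPKM in the others of that group. Slc25a16 was 7.69 FPKM in Ad-GFP sample 24 and 6.16 to 6.72 FPKM in the others. Slc25a18 was 0.473 FPKM in Ad-h-NR4A2 sample 28 and 0.024 to 0.183 FPKM in the others. Without that sample Slc25a18 would be differentially expressed and lower (ratio 0.436, limma adjusted p = 0.0368). That sample was singled out because it stood apart, and the other Ad-h-NR4A2 values of Slc25a18 rest on 1 to 9 fragments. Slc25a22 was 0.109 FPKM in Ad-GFP sample 24 and 0 to 0.017 FPKM in the others. Slc25a54 was 0.029 FPKM in Ad-h-NR4A2 sample 29 and 0 in the others of its group. For the last 2 genes these values rest on at most 5 fragments.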

How the results depend on the processing

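The 7 differentially expressed carriers kept their direction and stayed past the adjusted p limit in all 23 alternatives that gave a value for each, the 12 samples left out in turn included (highest limma adjusted p 0.00742). With the replicate block 12 carriers fell instead of 6, and the calls it added are given beside each gene; it changed no other call of a carrier. Leaving out 1 sample gave 4 to 8 carriers that fell and 9 to 11 that rose. Near 0, signs turned: the log2 fold change of Slc25a42 was -0.0072 on the TPM scale, that of Slc25a26 was 0.0087 under quantile and 0.011 under median-ratio scaling, and that of Slc25a23 was 0.010 under median-ratio scaling. With 1 sample left out, these log2 fold changes ran from -0.0025 to 0.055 for Slc25a42, from -0.046 to 0.046 for Slc25a26 and from -0.049 to 0.042 for Slc25a23. The cause was not tested. The call of Slc25a20 was lost with no filter, median-ratio scaling or no trend (adjusted p up to 0.0730), that of Slc25a15 on the TPM scale (0.0835) and that of Slc25a14 under quantile normalization (0.0700). Quantile normalization added calls for Slc25a4 (log2 fold change -0.21, adjusted p = 0.00307) and Slc25a46 (0.0113). Leaving out 1 sample added calls for Slc25a5 (without Ad-h-NR4A2 sample 28, adjusted p = 0.0105), Slc25a11 (without that sample or Ad-GFP 25 or 27, down to 0.0242), Slc25a33 (without Ad-GFP 27 or 29 or Ad-h-NR4A2 24, down to 0.0404), Slc25a39 (without Ad-GFP 27, 0.0466) and Slc25a46 (without Ad-h-NR4A2 24, 0.0405). A mean FPKM of at least 1 left out Slc25a18, Slc25a45 and Slc25a53. Depth limits the carriers under 1 FPKM, which rest on at most 22 fragments per sample.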
